A study of Mus musculus with 24 samples.

Results

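The primed epiblast regulators Otx2, Pou3f1, Sall2, Zic2, Zic5, Sox3 and Wnt8a were followed as a set of 7 genes among the 19938 genes measured. They were found by gene symbol among probe sets annotated to a single gene, and the probe set with the highest mean over all arrays stood for each gene. RNA was measured on 24 Affymetrix Mouse Gene 1.0 ST arrays, each covering whole transcripts. Undifferentiated embryonic stem cells (ESCs) of the mouse made up day 0, and embryoid bodies (EBs, aggregates in which ESCs differentiate) days 3 and 7. E14 and J1 supplied the Eed knockout (KO) cells, J1 and V6.5 the wild-type (WT) cells. Each line was hybridised on 2 arrays a day, so a genotype and day had 4 arrays. All ESCs were grown with LIF on mitomycin-inactivated embryonic fibroblasts, and all EBs started from fibroblast-depleted cells in hanging drops without LIF. The KO lines were a gift of another laboratory, and how many clones stood behind each line is not given in the sources used here. E14 KO had no E14 WT partner and V6.5 WT no KO partner, so outside J1 the genotype and the line background cannot be told apart. Nothing in the labels says that the 2 arrays of a line and day were separate cultures. The p-values therefore rest on a spread between samples that may be only technical.

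EED belongs to the core of Polycomb repressive complex 2, the enzyme that places the repressive methyl marks on lysine 27 of histone H3. ESCs resemble the naive epiblast of the early embryo. On leaving that state they pass through a primed state, like that of the epiblast after implantation, before germ layers form. OTX2 and POU3F1 (also called OCT6) are transcription factors known for switching on during that transition and acting at its enhancers. ZIC2, ZIC5 and SALL2 are zinc finger factors and SOX3 is an HMG-box factor related to SOX2. WNT8A is a secreted Wnt ligand of the late epiblast and primitive streak, and is the only member of the set that is not a transcription factor.

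Levels are the deposited log2 values, so a difference of 1 is 2-fold. A gene was called where the limma adjusted p, over all 19938 genes, was under 0.05 and the difference at least 2-fold. Only called genes are said to rise, fall, or be higher or lower in a comparison. The array platform gives no absolute scale, and levels are compared between samples and never between genes. The identifiers of the probe sets were 10419356 for Otx2, 10507905 for Pou3f1, 10419704 for Sall2, 10417176 for Zic2, 10376241 for Zic5, 10604837 for Sox3 and 10454701 for Wnt8a. Only Zic5 had another single-gene probe set, 10422504.

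The knocked-out gene itself checked the labels. Eed read between 5.76 and 7.48 on the 12 KO arrays and between 9.37 and 11.02 on the 12 WT arrays, and was lower in KO on days 0, 3 and 7, with differences of -3.44, -3.69 and -3.23. Day 0 cells carried the ESC genes Pou5f1, Nanog and Sox2 at group means between 11.93 and 12.46. Arrays of the same line and day correlated at r of at least 0.990 in 11 of 12 pairs, with 21 to 163 genes at least 2-fold apart. The WT J1 pair on day 7 stood apart at r = 0.962, with 1256 genes and 5 of the 7 regulators at least 2-fold apart. Replicate 1 of that pair read high for neural genes, of which 3 are named after their values were seen, Sox1 (8.97, against 7.66 to 7.87 on the other 3 WT day 7 arrays), Pax6 (10.02, against 6.09 to 6.41) and Pax3 (8.49, against 6.02 to 6.65). Over the 17 neuroectoderm genes measured its mean was 7.60, against 6.43 to 6.47 on the other 3. It was also the highest of the 4 in the mean of 12 primitive streak and early mesoderm genes (8.68, against 7.95 to 8.52). The same held for 11 canonical Wnt target genes (8.72, against 7.89 to 8.57). Its mean over 16 naive pluripotency genes was 7.32, within the 7.21 to 7.57 of the other 3, and its Eed value was 9.56. Its mean over the core genes Pou5f1, Nanog and Sox2 was 9.83, against 8.05 to 9.03 on the other 3, with Sox2 at 10.84 (7.97 to 9.09) and Nanog at 9.67 (8.14 to 9.05). It was the lowest of the 4 in the mean of 12 endoderm genes (7.83, against 8.67 to 9.28) and of 16 fibroblast genes (7.996, against 8.41 to 9.23). The regulators' results that rest on day 7 WT are therefore given also without these arrays.

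The used Zic5 probe set needs the same caution. RefSeq places Zic5 on chromosome 14, but the 10 probe sets nearest to it in identifier order all belong to genes of chromosome 11. For the second Zic5 probe set 9 of 10 such neighbours belong to chromosome 14, and for the other 6 regulators most neighbours lie on the gene's own chromosome. The Zic5 probe sets correlated at r = 0.851 over the 24 arrays, with overall means of 10.14 and 8.34. Which of them reads the Zic5 transcript was not tested. The Zic5 comparisons of genotype and day are therefore given for both, while the order of groups, the correlations and the values with arrays or lines left out are those of the used probe set.

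Promoter windows of 300 bases, 250 before and 50 after an annotated start, were available for 3 of the 7 genes and are credited to RefSeq (GRCm38.p6). Otx2 had 4 such windows, Sall2 had 2 and Zic5 had 1. A window of each gene is shown because these genes rose or fell in the comparisons below. Each reads 5′ to 3′ on the minus strand. The Otx2 window is the one with a searched motif, and the Sall2 window the one with more CG dinucleotides. Capitals mark GGATTA, the reverse complement of the OTX-type letters TAATCC, in the Otx2 window and CG dinucleotides in the other 2 windows.
Otx2, chr14:48665060-48665359: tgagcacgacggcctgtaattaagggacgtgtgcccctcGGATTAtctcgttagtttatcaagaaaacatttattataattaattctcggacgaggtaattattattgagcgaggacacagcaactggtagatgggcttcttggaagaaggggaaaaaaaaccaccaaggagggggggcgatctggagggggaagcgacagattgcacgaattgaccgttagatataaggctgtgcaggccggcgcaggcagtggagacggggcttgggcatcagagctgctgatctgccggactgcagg
Sall2, chr14:52316274-52316573: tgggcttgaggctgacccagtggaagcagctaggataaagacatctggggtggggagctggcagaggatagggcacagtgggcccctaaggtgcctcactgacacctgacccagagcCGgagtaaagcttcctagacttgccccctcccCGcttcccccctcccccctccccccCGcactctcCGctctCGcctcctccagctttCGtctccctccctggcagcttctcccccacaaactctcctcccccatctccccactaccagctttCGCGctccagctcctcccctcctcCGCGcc
Zic5, chr14:122465609-122465908: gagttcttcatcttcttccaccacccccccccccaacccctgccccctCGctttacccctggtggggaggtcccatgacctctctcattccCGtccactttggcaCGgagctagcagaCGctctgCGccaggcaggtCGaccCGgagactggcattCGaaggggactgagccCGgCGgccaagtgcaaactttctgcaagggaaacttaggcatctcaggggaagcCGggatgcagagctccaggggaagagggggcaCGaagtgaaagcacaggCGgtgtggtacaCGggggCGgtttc
The windows shown hold 16, 10 and 15 CG dinucleotides, against a median of 7 (quartiles 3 and 20) over 32851 such windows. Over all 7 windows of these genes the CG count ran from 1 to 16. The OTX-type letters TAATCC, searched on both strands, occur in the shown Otx2 window and in none of the other 6, and in 7.06% of all windows. The octamer core ATTTGCA (4.02% of all windows), the TCF/LEF letters CTTTGAT (3.73%) and the SOX letters CATTGT (12.6%) occur in none of the 7. A match is a string of letters and not a measured binding site. A window without a match says only that these letters are not in it.

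Otx2, a homeobox gene of the epiblast and later the forebrain, had its highest levels in WT EBs on day 3. On day 0 the J1 WT arrays read 11.28 and 10.79 and the V6.5 WT arrays 10.45 and 10.34. The day 3 values, 11.67 and 11.44 for J1 WT and 11.57 and 11.75 for V6.5 WT, were each above every day 0 array. By day 7 J1 WT stood at 11.58 and 6.82 and V6.5 WT at 7.97 and 8.47. The V6.5 arrays and J1 replicate 2 lay below every earlier WT array, while J1 replicate 1 stayed within the day 3 range. In KO the E14 arrays read 10.28 and 9.83 on day 0, 10.89 and 10.67 on day 3 and 10.30 and 9.72 on day 7. The J1 KO arrays read 10.97 and 10.83, then 10.97 and 11.25, then 10.39 and 10.77. Pooled over the lines the KO days overlapped one another throughout, but within each line both day 3 arrays were above both day 7 arrays. In E14 KO the day 3 arrays were also above both day 0 arrays, while in J1 KO days 0 and 3 overlapped. WT day 3 was the highest group, at 11.61 ± 0.13 (SD, n = 4), and did not overlap KO day 3, the next in order, at 10.95 ± 0.24. Below these, KO day 3, WT day 0, KO day 0, KO day 7 and WT day 7 each overlapped the group next in order. After day 3 Otx2 fell in WT to day 7, with a change of -2.90 (SE 0.54, adjusted p = 0.000215). The same difference in KO was -0.65 (SE 0.54, adjusted p = 0.473).

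Pou3f1, the POU-domain factor OCT6, had group SDs of only 0.18 to 0.32. J1 WT read 8.99 and 8.58 on day 0, 9.68 and 9.90 on day 3 and 8.28 and 7.84 on day 7. V6.5 WT read 8.68 and 8.62, then 10.30 and 10.32, then 8.001 and 8.06. All WT day 3 arrays were above all day 0 arrays and all day 7 arrays below them, and here the WT J1 day 7 pair was less than 2-fold apart. The KO arrays followed the same course over a smaller span. E14 KO read 8.42 and 8.44, then 9.41 and 9.31, then 8.23 and 8.13. J1 KO read 8.92 and 9.01, then 9.46 and 9.77, then 8.44 and 8.64. Within each KO line the day 3 arrays were the highest. In WT, Pou3f1 rose by 1.33 (SE 0.14, adjusted p = 1.61e-06) to day 3 and then fell to day 7, with a change of -2.005 (SE 0.14, adjusted p = 3.78e-10). In KO the day 3 difference of 0.79 (SE 0.14, adjusted p = 0.00114) was under 2-fold, and the gene then fell, with a change of -1.12 (SE 0.14, adjusted p = 1.35e-05). The groups ran from WT day 3 at 10.05 ± 0.32 over KO day 3 at 9.49 ± 0.20 to WT day 7 at 8.05 ± 0.18 (SD, n = 4). WT day 0 and KO day 0 lay within their spread of each other. The other gaps in the order exceeded the larger SD of the pair, but only KO day 3 and WT day 0 did not overlap. Without the V6.5 WT line the WT rise was just under 2-fold, at 0.999 (adjusted p = 0.0167).

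Sall2, a spalt-type zinc finger gene, had the largest rise of the set to day 3. J1 WT started at 7.51 and 7.28 and reached 9.52 and 9.97 on day 3, and V6.5 WT went from 7.27 and 7.29 to 9.90 and 9.61. On day 7 the values were 9.46 and 7.38 for J1 WT and 8.18 and 8.01 for V6.5 WT. All were below the lowest day 3 array, though J1 replicate 1 only by a small margin. E14 KO read 6.68 and 6.52 on day 0, 8.56 and 8.21 on day 3 and 7.12 and 7.49 on day 7. J1 KO read 7.78 and 7.82, then 9.01 and 8.97, then 7.91 and 7.98. Both KO lines peaked on day 3, and the J1 KO line started and stayed above E14 KO. Sall2 rose by 2.41 (SE 0.29, adjusted p = 5.33e-06) in WT and by 1.49 (SE 0.29, adjusted p = 0.00207) in KO to day 3. It then fell, with changes of -1.49 (SE 0.29, adjusted p = 0.000301) in WT and -1.06 (SE 0.29, adjusted p = 0.0189) in KO. The KO fall was no longer called without E14 KO day 3 replicate 1 (adjusted p = 0.0575), E14 KO day 7 replicate 1 (0.0596) or J1 KO day 3 replicate 1 (0.0504). That call was also lost without the E14 KO line (adjusted p = 0.243), J1 KO (0.157) or V6.5 WT (0.0812), and without the line as a block (0.0519). WT day 3 was highest at 9.75 ± 0.22 (SD, n = 4) and overlapped no other group. KO day 3, WT day 7, KO day 7, WT day 0 and KO day 0 followed, each overlapping its neighbour.

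Zic2, a zinc finger factor that also acts in neural plate and forebrain formation, also read highest in WT on day 3. J1 WT gave 10.74 and 10.63 on day 0, 11.77 and 11.39 on day 3 and 10.93 and 7.01 on day 7. V6.5 WT gave 10.33 and 10.13, then 11.52 and 11.27, then 8.50 and 8.997. On day 7 J1 replicate 1 stayed between the day 0 and day 3 arrays, and the other 3 arrays were below every earlier WT array. E14 KO read 10.54 and 10.24 on day 0, 11.05 and 11.09 on day 3 and 10.24 and 9.89 on day 7. J1 KO read 10.18 and 10.20, then 11.04 and 11.03, then 10.28 and 10.27. On day 3 the 4 KO arrays lay between 11.03 and 11.09, above all other KO arrays. The WT day 3 difference of 1.03 (SE 0.43, adjusted p = 0.135) was not called with all arrays. It was called without WT J1 day 7 replicate 1 (adjusted p = 0.00555) or replicate 2 (adjusted p = 0.00979), arrays that enter it only through the shared estimate of the spread. After day 3 Zic2 fell in WT to day 7, with a change of -2.63 (SE 0.43, adjusted p = 4.16e-05), against -0.88 (SE 0.43, adjusted p = 0.196) in KO. WT day 3, at 11.49 ± 0.21, and KO day 3, at 11.05 ± 0.023 (SD, n = 4), overlapped neither each other nor WT day 0. The remaining groups overlapped their neighbours in the order WT day 0, KO day 0, KO day 7 and WT day 7.

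Zic5, which lies beside Zic2 on chromosome 14 with 1 annotated gene between them, read as follows on the used probe set. J1 WT gave 11.26 and 10.87 on day 0, 11.69 and 11.65 on day 3 and 9.90 and 6.64 on day 7, and V6.5 WT 10.89 and 10.62, then 11.51 and 10.94, then 8.03 and 8.23. Every day 7 array was below every earlier WT array. E14 KO gave 10.16 and 10.16, then 10.64 and 10.56, then 9.51 and 9.41 on days 0, 3 and 7. J1 KO gave 9.96 and 9.85, then 10.74 and 10.46, then 9.82 and 9.80. The KO arrays were below every WT array on days 0 and 3 and above 3 of the 4 on day 7. After day 3 Zic5 fell in WT to day 7, with a change of -3.25 (SE 0.36, adjusted p = 3.22e-07), against -0.97 (SE 0.36, adjusted p = 0.0928) in KO. On the second probe set J1 WT gave 8.84 and 8.52, then 9.01 and 9.18, then 8.12 and 7.90 on days 0, 3 and 7, and V6.5 WT 8.60 and 8.44, then 8.72 and 8.62, then 7.74 and 7.57. There E14 KO gave 8.29 and 8.23, then 8.60 and 8.39, then 7.95 and 7.79, and J1 KO 8.15 and 8.14, then 8.70 and 8.64, then 8.14 and 7.85. On this probe set the WT J1 day 7 pair was less than 2-fold apart, and KO and WT overlapped on day 7. Here Zic5 also fell in WT from day 3 to day 7, with a change of -1.05 (SE 0.11, adjusted p = 1.69e-07), and the KO difference of -0.65 (SE 0.11, adjusted p = 0.000425) was under 2-fold. The order of groups on the used probe set was WT day 3 at 11.45 ± 0.34, WT day 0 at 10.91 ± 0.26, KO day 3 at 10.60 ± 0.12, KO day 0 at 10.03 ± 0.15, KO day 7 at 9.64 ± 0.21 and WT day 7 at 8.20 ± 1.33 (SD, n = 4). Each gap in that order exceeded the larger SD of its pair, but only KO day 3 and KO day 0, and KO day 0 and KO day 7, did not overlap.

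Sox3, an X-linked relative of Sox2 with a role in the early neural plate, varied least. J1 WT read 8.65 and 8.38 on day 0, 8.90 and 8.94 on day 3 and 8.84 and 8.18 on day 7, and V6.5 WT 8.52 and 8.48, then 8.95 and 8.62, then 8.26 and 8.10. E14 KO read 8.53 and 8.34, then 9.09 and 8.57, then 8.47 and 8.16 on the 3 days, and J1 KO 8.59 and 8.21, then 8.94 and 8.56, then 8.35 and 8.37. Days and genotypes overlapped almost throughout, and group means ran only from 8.34 to 8.85. The difference from day 3 to day 7 passed the p threshold below 2-fold in WT, at -0.51 (SE 0.14, adjusted p = 0.0075), and in KO, at -0.45 (SE 0.14, adjusted p = 0.0408). Each neighbour in the order of groups overlapped the next.

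Wnt8a, the secreted ligand, had the widest WT spread of the set on days 0 and 3 (SD 0.81 and 0.74). J1 WT read 7.35 and 8.90 on day 0, 9.92 and 8.70 on day 3 and 7.80 and 6.64 on day 7, and V6.5 WT 7.10 and 7.49, then 8.40 and 8.31, then 6.69 and 6.97. J1 replicate 2 already stood at a day 3 level on day 0, and every day 7 array was below every day 3 array. E14 KO read 6.99 and 6.84, then 8.65 and 8.81, then 7.02 and 7.33 on days 0, 3 and 7. J1 KO read 7.36 and 7.47, then 7.65 and 7.42, then 7.25 and 7.80. The day 3 peak was present in E14 KO, while the J1 KO days overlapped. In WT, Wnt8a rose by 1.12 (SE 0.35, adjusted p = 0.0393) to day 3 and fell to day 7, with a change of -1.81 (SE 0.35, adjusted p = 0.000333). The rise was not called without the line as a block (adjusted p = 0.0714) or with the 2 arrays of a line and day averaged (adjusted p = 0.105). Leaving out the J1 WT line (adjusted p = 0.0853) or the V6.5 WT line (0.27) also lost the call. Nor was it called without WT J1 day 0 replicate 1 (adjusted p = 0.143), WT J1 day 3 replicate 1 (0.175) or replicate 2 (0.0525), WT V6.5 day 0 replicate 1 (0.131) or replicate 2 (0.0814), or WT V6.5 day 3 replicate 1 (0.0559). The KO differences were 0.97 (SE 0.35, adjusted p = 0.113) to day 3 and -0.78 (SE 0.35, adjusted p = 0.165) to day 7. Group means ran from 8.83 ± 0.74 on WT day 3 to 7.02 ± 0.54 on WT day 7 (SD, n = 4), and every neighbour in the order overlapped the next.

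**Figure D1:**
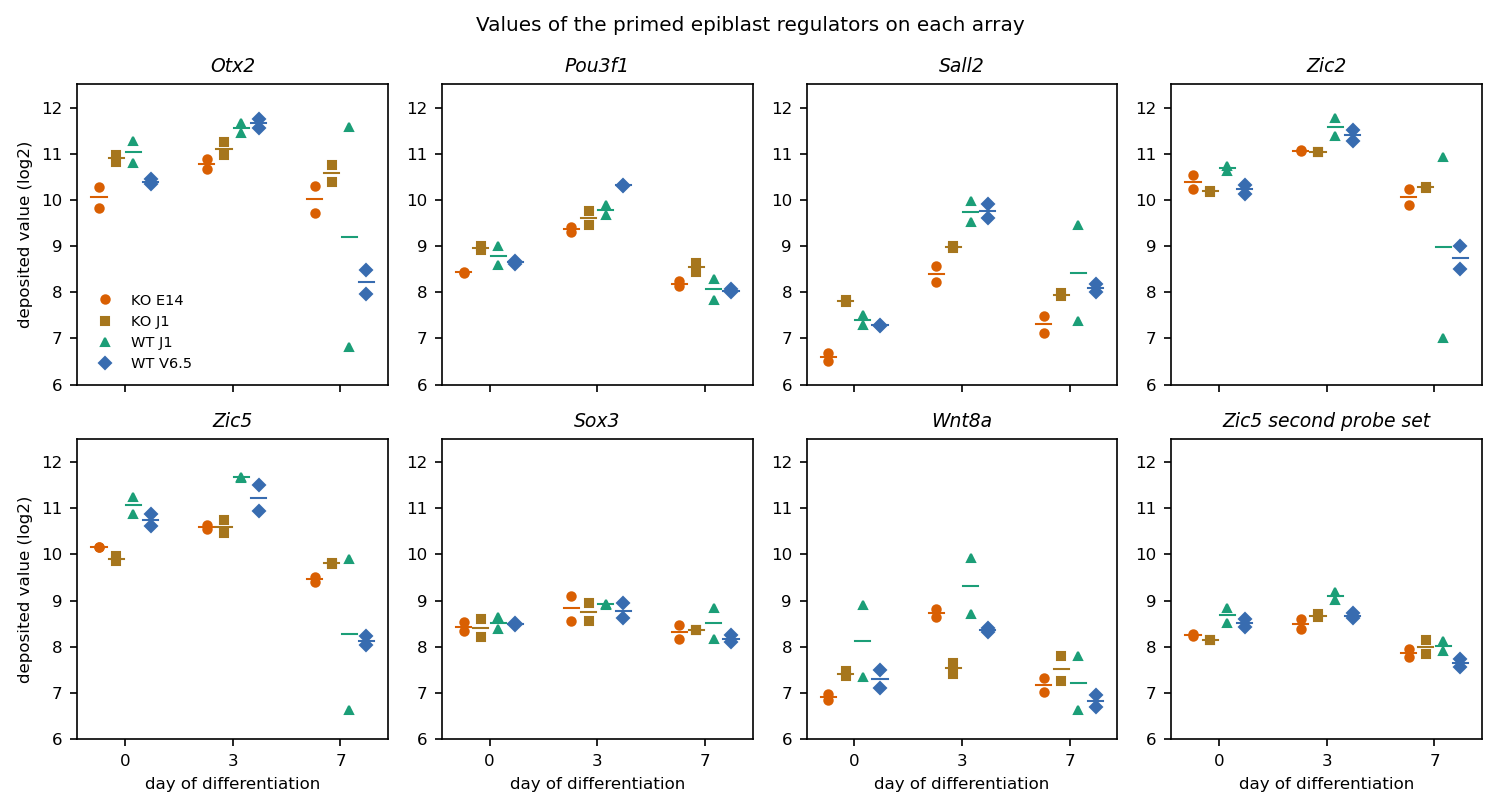
Deposited log2 value of each regulator on each array (y axis) by day of differentiation (x axis). Symbols are single arrays of KO E14, KO J1, WT J1 and WT V6.5, dashes are the mean of the 2 arrays, and the last panel holds the second Zic5 probe set. WT day 3 arrays are the highest for most genes, and the 2 WT J1 arrays of day 7 lie far apart for Otx2 (11.58 and 6.82), Zic2 (10.93 and 7.01) and the used Zic5 probe set (9.90 and 6.64).

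For all 7 genes WT day 3 had the highest group mean. Between day 0 and day 3 all 7 differences were above 0, with a median of 1.03 (all genes -0.00215), and 3 of 7 regulators rose: Sall2, Pou3f1 and Wnt8a. Over all genes 0.958% rose and 1.08% fell in that comparison, and no regulator fell. Otx2, at 0.89 (SE 0.54, adjusted p = 0.373), and Zic2 were not called although their 4 day 3 arrays were above their 4 day 0 arrays. Without the J1 WT line, which leaves only V6.5 as WT, both were called. Otx2 then gave 1.262 (adjusted p = 0.00923) and Zic2 1.165 (adjusted p = 0.00025). Zic5 gave 0.54 (SE 0.36, adjusted p = 0.437), with 0.28 (SE 0.11, adjusted p = 0.116) on the second probe set, and Sox3 gave 0.34 (SE 0.14, adjusted p = 0.136). Between day 3 and day 7 all 7 differences were below 0, with a median of -2.005 (all genes -0.04), and 6 of 7 fell: Zic5, Otx2, Zic2, Pou3f1, Wnt8a and Sall2. Over all genes 2.45% fell and 3.78% rose. Without the V6.5 WT line, which leaves only J1 as WT, the falls of Otx2 (adjusted p = 0.0919) and Sall2 (adjusted p = 0.106) were no longer called. The count stayed at 6 when any of the 24 arrays, or both WT J1 day 7 arrays, were left out. Without WT J1 day 7 replicate 1 the changes were -3.87 for Otx2, -3.33 for Zic2, -3.82 for Zic5, -1.91 for Sall2, -2.10 for Pou3f1 and -2.01 for Wnt8a. Without replicate 2 they were, in the same order, -2.18, -1.94, -2.67, -1.17, -1.94 and -1.60. Markers of other cells moved over the same interval in WT. Of 16 fibroblast genes 9 rose and 1 fell, and of 12 endoderm genes 8 rose. Among 12 primitive streak and early mesoderm genes 3 rose, Foxf1 by 4.10, Hand1 by 3.82 and Kdr by 3.61, and 1 fell, while 3 of 17 neuroectoderm genes fell. The 3 core pluripotency genes fell, and of 16 naive genes 8 fell and 1 rose. Their part in the falls of the regulators was not tested. EBs are mixtures of cells, so fewer epiblast cells and less RNA per cell cannot be told apart in these values.

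In KO differentiation 1 regulator rose to day 3 and 2 fell afterwards. To day 3 all 7 differences were again above 0, with a median of 0.76 (all genes 0.02), and 1 of 7 rose, Sall2. Over all genes 0.562% rose and 0.607% fell. Without the E14 KO line the Sall2 difference was 1.19 (adjusted p = 0.193), which was not called. Differences of the genes not called were 0.47 for Otx2, 0.76 for Zic2, 0.57 for Zic5 and 0.37 for Sox3. On the second Zic5 probe set the difference, 0.38 (SE 0.11, adjusted p = 0.042), passed the p threshold below 2-fold. In the later interval the median was -0.88 (all genes -0.06), and 2 of 7 fell, Pou3f1 and Sall2. Over all genes 0.351% fell and 1.65% rose. In that interval 2 of 16 fibroblast and 3 of 12 endoderm genes rose in KO and 0 of 16 naive, 0 of 3 core and 0 of 12 primitive streak and early mesoderm genes were called.

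**Figure D2:**
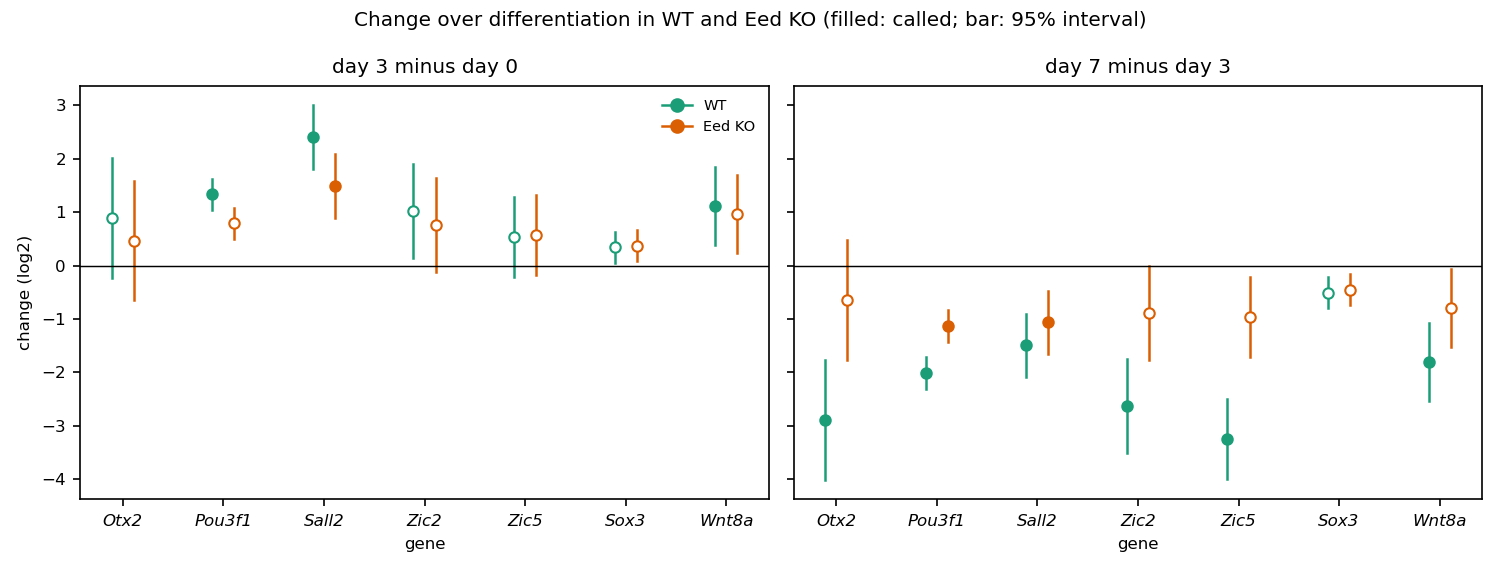
Change of each regulator in log2 units (y axis) from day 0 to day 3 and from day 3 to day 7, for WT and Eed KO. Points are limma differences over 4 arrays a group, bars are 95% intervals, and filled points are called. From day 3 to day 7 the WT point lies below the KO point for all 7 genes, by 2.28 for Zic5 and by 0.06 for Sox3, whose sign turned after quantile normalization and in some settings with a line or array left out.

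Whether the course over days differed between KO and WT was tested directly. For the change from day 0 to day 3, 0 of 7 regulators differed by limma (2 at an unadjusted p under 0.05), where 0.0502% of all genes were called in either direction. The largest difference was that of Sall2, -0.92 (SE 0.41, adjusted p = 0.868), and Pou3f1 gave -0.54 (SE 0.20, adjusted p = 0.729). For the change from day 3 to day 7, all 7 differences (KO minus WT) were above 0 with all arrays. That of Sox3 turned to -0.0096 after quantile normalization, to -0.0065 without J1 KO and to -0.044 without V6.5 WT, and was below 0 in 4 of 24 removals of a single array. Of the 7, 1 was called, Zic5 at 2.28 (SE 0.51, adjusted p = 0.00874). Over all genes 1.36% were called in that direction. On the second Zic5 probe set the value was 0.40 (SE 0.16, adjusted p = 0.166), and the count became 0. The call on the used probe set was also lost without the E14 KO line (adjusted p = 0.107), J1 KO (0.169) or V6.5 WT (0.154). It held without WT J1 day 7 replicate 1, at 2.86 (adjusted p = 4e-06), and without replicate 2, at 1.70 (adjusted p = 0.00263). Pou3f1 passed the p threshold at less than 2-fold, 0.88 (SE 0.20, adjusted p = 0.0106). It was called without the J1 WT line, at 1.16 (adjusted p = 0.00148), and without WT J1 day 3 replicate 1, at 1.002 (adjusted p = 0.0038). Otx2 gave 2.25 (SE 0.77, adjusted p = 0.0953) and Zic2 1.74 (SE 0.60, adjusted p = 0.0984). With the 2 arrays of a line and day averaged both were called, at adjusted p = 0.0194 for Otx2 and 0.00185 for Zic2. Without WT J1 day 7 replicate 1 both were called, at 3.21 (adjusted p = 4.11e-06) for Otx2 and 2.45 (adjusted p = 6.49e-05) for Zic2. Without replicate 2 neither was, at 1.52 (adjusted p = 0.178) and 1.06 (adjusted p = 0.13). Over all genes 511 were called in either direction with all arrays, 843 without replicate 1 and 509 without replicate 2. Wnt8a gave 1.02 (SE 0.50, adjusted p = 0.287), Sall2 0.43 (SE 0.41, adjusted p = 0.657) and Sox3 0.055 (SE 0.20, adjusted p = 0.923). These differences share the day 3 arrays with the comparisons of KO and WT on day 3.

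No regulator passed the test between KO and WT ESCs on day 0. By limma 0 of 7 were called, and 0 reached an unadjusted p under 0.05, where 0.461% of all genes were called higher and 0.0903% lower. All 7 differences were below 0, with a median of -0.17 (all genes -0.03). Without the E14 KO line Otx2, Pou3f1 and Sall2 turned to 0.18, 0.25 and 0.46, and without J1 WT Otx2, Pou3f1 and Zic2 turned to 0.080, 0.048 and 0.061. Leaving out single arrays turned the sign of Pou3f1 or Sall2 in some cases. The 95% intervals of single differences were -0.37 to 0.33 for Pou3f1, -0.43 to 0.25 for Sox3 and -0.84 to 0.56 for Sall2. They were wider for Otx2, -1.56 to 1.08, Zic2, -1.20 to 0.87, and Wnt8a, -1.40 to 0.31. Zic5 was the only regulator whose KO arrays were all below its WT arrays, at -0.87 (SE 0.43, adjusted p = 0.4), and the second probe set read likewise, at -0.40 (SE 0.13, adjusted p = 0.136). Of all genes 5.01% had every KO array below every WT array on day 0, and 6.33% every KO array above. On day 0, 3 of 16 fibroblast genes (Thbs1, Lox and Fbln2) and 2 of 12 endoderm genes were higher in KO, with fibroblast list means of 8.19 to 9.11 on KO arrays and 7.79 to 8.06 on WT arrays. Their part in the values of the regulators was not tested.

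On day 3 the regulators were again not called. By limma 0 of 7 passed (2 at an unadjusted p under 0.05), where 0.667% of all genes were called higher and 0.0903% lower. All 7 differences were below 0, with a median of -0.66 (all genes -0.00066). That of Sox3 turned to 0.0069 without J1 WT, and it ranged from -0.16 to 0.022 with single arrays left out. Otx2, Sall2, Zic2 and Zic5 had every KO array below every WT array, 4 of 7, which held for 4.3% of all genes, with 6.12% the other way. The largest difference was that of Sall2, -1.06 (SE 0.34, adjusted p = 0.117). It was called without WT J1 day 7 replicate 1 (adjusted p = 0.0182) or replicate 2 (adjusted p = 0.0484), arrays that enter it only through the shared spread. Pou3f1 gave -0.56 (SE 0.17, adjusted p = 0.0912), Zic5 -0.85 (SE 0.43, adjusted p = 0.427), Wnt8a -0.70 (SE 0.42, adjusted p = 0.546), Otx2 -0.66 (SE 0.64, adjusted p = 0.805), Zic2 -0.44 (SE 0.50, adjusted p = 0.856) and Sox3 -0.060 (SE 0.17, adjusted p = 0.97). On the second Zic5 probe set the value was -0.30 (SE 0.13, adjusted p = 0.325), and KO and WT overlapped. On the same day 9 of 16 naive pluripotency genes were higher in KO, among them Zfp42 by 2.26 and Tcl1 by 2.24. The list means were 9.47 to 10.21 on KO arrays and 7.51 to 9.03 on WT arrays, and their part in the regulators' values was not tested. Pou5f1, Nanog and Sox2 differed by -0.12, 0.78 and 0.18, none called.

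On day 7 the KO means of Otx2, Zic2 and Zic5 exceeded the WT means by 1.31 to 1.58, and 1 of the 7 regulators was called. That was Zic5, higher in KO by 1.44 (SE 0.43, adjusted p = 0.0223), where 3.08% of all genes were called higher and 1.28% lower. On the second Zic5 probe set the difference was 0.099 (SE 0.13, adjusted p = 0.687), and the count became 0. The call on the used probe set was also lost without the E14 KO line (adjusted p = 0.102), J1 KO (0.201) or V6.5 WT (0.0973). Otx2 gave 1.58 (SE 0.64, adjusted p = 0.0989) and Zic2 1.31 (SE 0.50, adjusted p = 0.0799). With the 2 arrays of a line and day averaged both were called, at adjusted p = 0.019 for Otx2 and 0.00101 for Zic2. Zic2 was also called without the line as a block (adjusted p = 0.0355). Pou3f1 gave 0.32 (SE 0.17, adjusted p = 0.235), Wnt8a 0.33 (SE 0.42, adjusted p = 0.672), Sox3 -0.0045 (SE 0.17, adjusted p = 0.99) and Sall2 -0.63 (SE 0.34, adjusted p = 0.236). The median of the 7 was 0.33 (all genes -0.04), and no regulator had KO and WT arrays fully apart, where 9.7% of all genes had every KO array above and 7.13% every KO array below.

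These day 7 calls also depended on the 2 WT J1 arrays. Without replicate 1, Otx2 was higher in KO by 2.55 (adjusted p = 5.36e-06), Zic2 by 2.02 (adjusted p = 5.96e-05) and Zic5 by 2.01 (adjusted p = 2.58e-05). Without replicate 2 the values were 0.86 (adjusted p = 0.326) for Otx2, 0.62 (adjusted p = 0.246) for Zic2 and 0.85 (adjusted p = 0.0452) for Zic5, and none was called. Without both, which leaves V6.5 as the only WT line on that day, they were 2.01 (adjusted p = 2.04e-05), 1.35 (adjusted p = 1.39e-05) and 1.42 (adjusted p = 1.5e-05), all called. Sall2 differed by -0.63 with all arrays, by -0.22 (adjusted p = 0.654) without replicate 1 and by -0.96 (adjusted p = 0.0353) without replicate 2. Pou3f1, Sox3 and Wnt8a were called in none of these settings. Over all genes 870 were called with all arrays, 1081 without replicate 1, 868 without replicate 2 and 1132 without both. The removal of both arrays was chosen after the values had been seen.

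**Figure D3:**
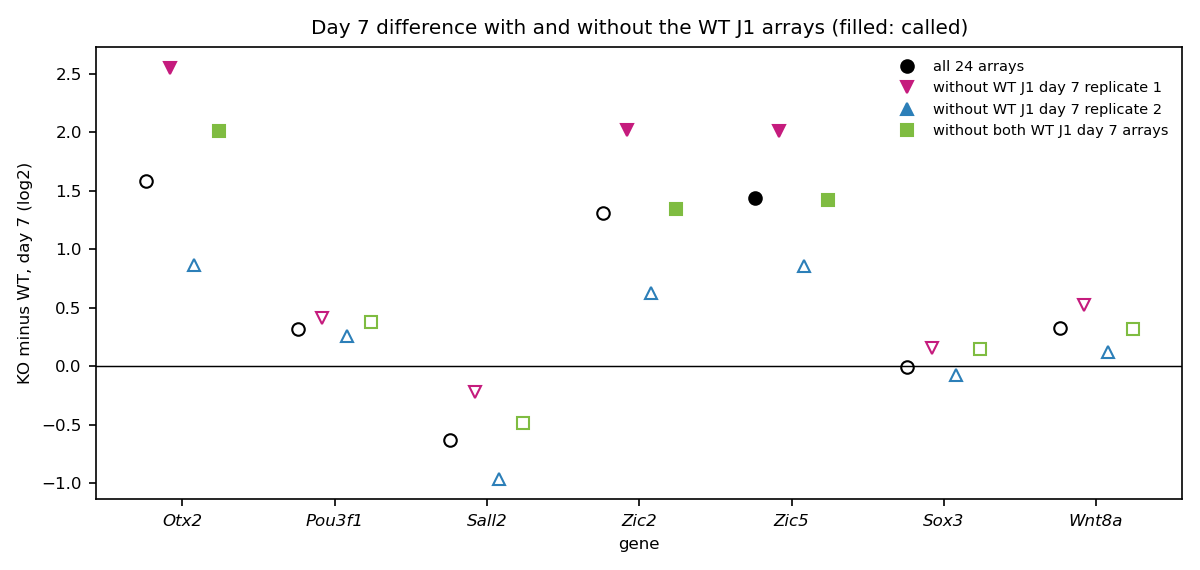
KO minus WT difference on day 7 in log2 units (y axis) for each regulator, with all 24 arrays and without either or both WT J1 day 7 arrays. Filled symbols are called. The Otx2 value runs from 0.86 without replicate 2 to 2.55 without replicate 1, while Pou3f1 stays between 0.26 and 0.41.

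Other markers also differed between KO and WT on day 7, and their part in the values of the regulators was not tested. Of 16 naive pluripotency genes 15 were higher in KO, with list means of 10.00 to 10.50 on KO arrays and 7.21 to 7.57 on WT arrays. Pou5f1, Nanog and Sox2 were higher by 3.12, 3.56 and 2.45. Of 12 primitive streak and early mesoderm genes 3 were lower in KO, Foxf1, Hand1 and Kdr, with list means of 7.25 to 7.47 in KO and 7.95 to 8.68 in WT. Of 16 fibroblast genes 3 were lower in KO, Postn, Col1a1 and Col1a2, with list means of 8.004 to 8.45 in KO and 7.996 to 9.23 in WT. Of 17 neuroectoderm genes 1 was higher in KO, En2, with list means of 6.94 to 7.15 in KO and 6.43 to 7.60 in WT. En2 was already higher in KO on days 0 and 3, by 1.32 and 1.23. Of 12 endoderm genes 1 was higher in KO, Cubn, which was also higher on days 0 and 3, by 2.12 and 1.87. Arrays give no true 0, so absence of a marker cannot be read from them.

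**Figure D4:**
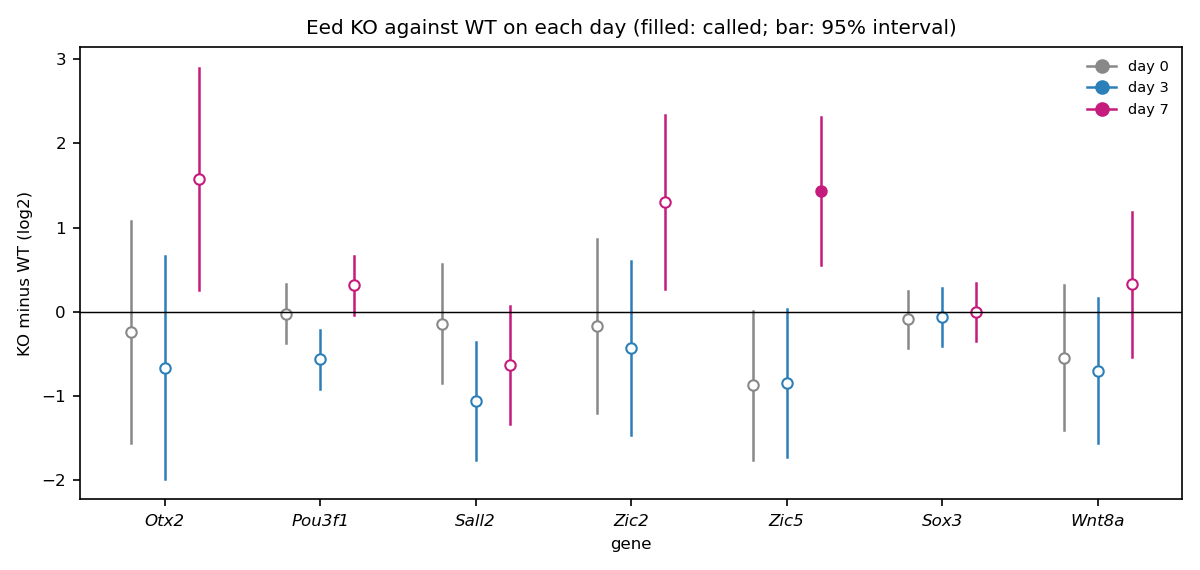
KO minus WT difference in log2 units (y axis) for each regulator on days 0, 3 and 7. Points are limma differences over 4 arrays a group, bars are 95% intervals, and filled points are called. With all arrays the day 0 and day 3 points lie below 0 for all 7 genes, some by so little that leaving out a line turns the sign, and the only filled point is Zic5 on day 7, at 1.44.

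Within line J1, where KO and WT share a line name, 2 arrays stood on each side. On day 0 limma called 0 of 7 regulators (0 at an unadjusted p under 0.05), where 0.456% of all genes were called in either direction. On day 3 it called 1 of 7, Wnt8a, lower in J1 KO at -1.77 (SE 0.42, adjusted p = 0.0275), where 0.261% of all genes were lower. That call did not hold in every removal of a J1 day 3 array, but such a removal leaves a single array on a side, so p-values are not given. The difference was -1.89 without J1 KO day 3 replicate 1, -1.66 without replicate 2 and -1.17 without J1 WT day 3 replicate 1. Over all removals of a single array it ran from -2.38 to -1.17. Wnt8a in E14 KO minus J1 KO on day 3 was 1.19 (SE 0.42, adjusted p = 0.335). Zic5 in J1 gave -1.15 (SE 0.57, adjusted p = 0.435) on day 0 and -1.07 (SE 0.57, adjusted p = 0.42) on day 3, with -0.53 (SE 0.14, adjusted p = 0.0767) and -0.42 (SE 0.14, adjusted p = 0.147) on the second probe set. With both WT J1 day 7 arrays left out, the used probe set was called at adjusted p-values of 0.000648 on day 0 and 0.000928 on day 3. The differences themselves stayed at -1.15 and -1.07, as these arrays enter them only through the shared estimate of the spread. The counts over all genes in that setting are not given here, so these calls cannot be weighed. On day 7 limma called 0 of 7 in J1 (2 at an unadjusted p under 0.05), where 4.29% of all genes were called in either direction. Pou3f1 came nearest, at 0.48 (SE 0.16, adjusted p = 0.0532). With either WT J1 array left out the WT side is a single array, so these values are given without a test. The J1 KO mean minus WT replicate 2 was 3.75 for Otx2, 3.26 for Zic2, 3.17 for Zic5 and 0.56 for Sall2. Minus WT replicate 1 it was -1.002, -0.66, -0.085 and -1.51, so the sign depended on the array for all 4.

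No regulator passed the test between the lines of a genotype. Between E14 KO and J1 KO limma called 0 of 7 on days 0, 3 and 7 (2, 1 and 1 at an unadjusted p under 0.05), where 0.396%, 0.0451% and 0.998% of all genes were called in either direction. Between V6.5 WT and J1 WT it called 0 of 7 on each day (0, 2 and 0 at an unadjusted p under 0.05), where 0.953%, 0.637% and 0.993% of all genes were called. Sall2 read below J1 KO in E14 KO on all days, at -1.20 (SE 0.38, adjusted p = 0.148), -0.60 (SE 0.38, adjusted p = 0.853) and -0.64 (SE 0.38, adjusted p = 0.513). Pou3f1 did likewise, at -0.54 (SE 0.16, adjusted p = 0.114), -0.25 (SE 0.16, adjusted p = 0.848) and -0.36 (SE 0.16, adjusted p = 0.304). In V6.5 WT the day 3 Pou3f1 level was above that of J1 WT, at 0.53 (SE 0.16, adjusted p = 0.0941). Without WT J1 day 7 replicate 1 the V6.5 and J1 WT lines differed in 3 regulators and 586 of all 19938 genes on day 7, and without replicate 2 in 4 regulators and 787 genes. In these counts J1 WT is a single array, assumed to vary like the other groups. Between the KO lines 1 regulator was called on day 0 once both WT J1 day 7 arrays were left out. These arrays enter that comparison only through the shared estimate of the spread. The count over all genes in that setting is not given here, so this call cannot be weighed.

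Other genes of the primed state were followed beside the regulators. Of 8 such genes 3 rose to day 3: Fgf5, a secreted growth factor of the primed epiblast, by 2.72, the kinase gene Pim2 by 1.54 and the DNA methyltransferase gene Dnmt3b by 1.32. From day 3 to day 7, 4 of 8 fell in WT, with log2 changes of -3.61 for Fgf5, -3.59 for Pim2, -2.99 for Dnmt3b and -1.42 for Tcf15. In KO 2 of 8 rose to day 3, Fgf5 by 2.23 and Pim2 by 2.13, and 3 of 8 then fell, with changes of -2.67 for Pim2, -2.31 for Fgf5 and -1.72 for Dnmt3b. The medians over the 8 were 0.65 and -1.09 in WT and 0.36 and -0.65 in KO. Between KO and WT 0 of 8 were called on days 0 and 3, and 1 on day 7, Tcf15, higher in KO by 1.38 (SE 0.16, adjusted p = 2.04e-06). The change from day 3 to day 7 differed for Dnmt3b, by 1.27 (SE 0.33, adjusted p = 0.0205). Naive pluripotency genes ran the other way to day 3, with 16 of 16 lower in WT (median -2.01) and 4 of 16 in KO (median -0.78).

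The relatives of the regulators were mostly not called. Of the other ZIC genes Zic1 and Zic4 were measured by a single-gene probe set, and Zic1 was higher in KO on day 3, by 1.98 (SE 0.52, adjusted p = 0.0439), at means of 8.57 in KO and 6.59 in WT. Its day 7 difference was 1.35 (SE 0.52, adjusted p = 0.0817). Of the other 3 POU3 genes and the other 4 OTX and CRX relatives none was called in the comparisons of genotype or day. Of the other 3 SALL genes only Sall1 was called, falling in WT from day 3 to day 7, with a change of -1.07. Of 4 SOXB relatives only Sox2 was called, falling in WT from day 3 to day 7 (change -2.48), higher in KO on day 7, and with a genotype difference in that change of 2.27 (SE 0.49, adjusted p = 0.00596).

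Genes around the Wnt8a signal were set beside it. Of 18 other Wnt ligand genes 0 were called to day 3 in either genotype. Between days 3 and 7, 2 rose in WT, Wnt5a by 2.77 and Wnt2 by 1.96, and 1 in KO, Wnt5a by 1.15. On day 7 Wnt2 was lower in KO, at -2.03 (SE 0.35, adjusted p = 0.000264). Of 11 canonical Wnt target genes measured, 1 fell in WT to day 3, Notum, which encodes a secreted Wnt-inactivating enzyme, with a change of -1.43, and none rose. In KO 0 of 11 were called to day 3. From day 3 to day 7, 4 of 11 rose in WT, Dkk1 by 2.08, Cdx2 by 1.58, Lgr5 by 1.09 and Nkd1 by 1.05, and 1 rose in KO, Dkk1 by 3.24. That change was lower in KO than in WT for Cdx2, at -1.94 (SE 0.29, adjusted p = 0.000202), and Lgr5, at -1.12 (SE 0.32, adjusted p = 0.0412), and likewise for the ligand genes Wnt2, at -1.85 (SE 0.42, adjusted p = 0.00998), and Wnt5a, at -1.63 (SE 0.30, adjusted p = 0.00169). On day 7, 1 of 11 was higher in KO, the inhibitor gene Dkk1 by 1.46, and 1 was lower, the homeobox gene Cdx2, at -1.23.

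Over the 12 means of line, genotype and day, Pearson's r between regulators ran from 0.317 for Sall2 and Zic5 to 0.947 for Zic2 and Zic5. Otx2 and Zic2 gave 0.94, Otx2 and Zic5 0.917, and Otx2 and Sall2 0.428. These means come from the same arrays, normalized together, and are given as a description. Among 1267 genes that ranged over at least 2 log2 units, those most like Otx2 were Map7d3 (r = 0.957), Ugt8a (0.957) and Usp44 (0.953). Those most like Pou3f1 were Fgf5 (0.949), Mmp25 (0.947) and Cyp2j13 (0.947). Sall2 was most like Spon1 (0.929), Pcdh1 (0.923) and Cdh10 (0.914). Zic2 was most like Ugt8a (0.957), Galnt3 (0.95) and Zic5 (0.947), and the used Zic5 probe set was most like Slc27a2 (0.963), Zic2 (0.947) and Cbr3 (0.947). For Sox3, whose own range was 0.74, among 1268 genes they were Tmem154 (0.943), Calcr (0.912) and Pim2 (0.91). For Wnt8a they were Ppp4r4 (0.934), Mir367 (0.92) and Mir302c (0.918).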

How the data were processed

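RNA from 24 samples was hybridised to Affymetrix Mouse Gene 1.0 ST arrays. The authors deposited 1 log2 value per probe set and array, made by RMA (background correction, quantile normalization and probe summary) in Affymetrix Power Tools, per the submitters' processing notes. The sources used here give no version, build or annotation for this step, and the base of the logarithm was read from the values (2.08 to 14.4). Normalizing all arrays together assumes like overall distributions. No scanner files were used here, so signal over background is unknown, and the number of arrays limits the precision.

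Of 35556 probe sets, 21789 had 1 gene symbol in the platform annotation, 1621 had several, and 12146 were not listed. Symbols were set against RefSeq (21698 matched), and 999 genes had several probe sets. The probe set with the highest mean stood for a gene, giving 19938 genes.

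In R 4.3.3, limma 3.58.1 (with statmod 1.5.0) fitted 6 genotype-by-day means over 24 arrays, with the line of a genotype as a random block (correlation 0.161, 18 residual degrees of freedom). A fit of line-by-genotype-by-day means without the block gave the comparisons of lines. p-values were adjusted by Benjamini-Hochberg over all genes. The fit was also run on simulated data in which a gene had the same spread on all arrays. No pair was made to differ as the WT J1 day 7 arrays do, so that run does not bear on results that rest on them. Figures were drawn with matplotlib 3.10.9 in Python 3.11.15.

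The members, lists and tests were chosen with earlier results of these data known. Named were all 7 members, Eed and 3 pluripotency genes, up to 4 called genes of each other list by size of difference (up to 2 where none was called), and for each member the 3 most correlated genes, predicted genes passed over. Alternatives were no block, a replicate block, averaged arrays, quantile and median normalization, a minimum mean of 6, averaged probe sets, no fold minimum, and leaving out each line and each array. The second Zic5 probe set and leaving out both WT J1 day 7 arrays were added after the data had been seen.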

Additional observations from a re-analysis of the deposited data

Results flagged for a closer look

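In 4 of 42 groups of 4 arrays a single array lay far from the other 3 by Dixon's test. Chance gives this in about 5% of groups of 4 independent values. Here a group holds 2 arrays of each of 2 lines, and the genes share arrays, so 4 of 42 cannot be weighed against that share. Sall2 in WT day 0 had J1 replicate 1 at 7.514, with the others from 7.27 to 7.29. Zic2 in KO day 0 had E14 replicate 1 at 10.54, with the others from 10.18 to 10.24. Zic2 in KO day 7 had E14 replicate 2 at 9.89, with the others from 10.24 to 10.28. Sox3 in WT day 3 had V6.5 replicate 2 at 8.621, with the others from 8.90 to 8.95.

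The change of Zic5 from day 3 to day 7 differed between KO and WT by 2.282 (limma, adjusted p = 0.00874), with a fall in WT and an uncalled difference in KO. On the second Zic5 probe set the difference was 0.40 (adjusted p = 0.166).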

How the results depend on the processing

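The spread between arrays that may share a culture, and 1 line pair with both genotypes, limit what these values can show. Over all settings 2926 values of single regulators kept their direction and side of the threshold, 57 turned sign, 42 passed the threshold newly and 34 no longer passed it. The cause of these moves was not tested. Over all genes the count called between KO and WT was 110, 151 and 870 on days 0, 3 and 7, against 22, 43 and 769 with averaged arrays and 402, 434 and 3250 with no fold minimum. With a line left out they ran from 47 to 272, from 53 to 247 and from 782 to 1165. With no fold minimum the counts over days went from 407 to 2324 and from 1242 to 5889 in WT, and from 233 to 1269 and from 399 to 2032 in KO. Without E14 KO the KO counts were 124 and 210. The change to day 3 differed between genotypes in 10 genes (0 with averaged arrays), and that to day 7 in 511 genes (327 with averaged arrays, 1049 with no fold minimum, 145 to 899 with a line left out).

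Same-numbered arrays of different groups deviated together in some pairs of groups and in opposite ways in others. Over 66 pairs of groups the correlation of their deviations ran from -0.397 to 0.47, with a median of 0.0569, and 30 exceeded 0.1. These values do not show whether the numbers pair the samples, and the main fit does not pair them. With the replicate block no call of a regulator changed. The Zic5 difference on day 7 kept its value of 1.44 at an adjusted p of 0.0176, the count of regulators called stayed at 1, and 864 genes were called.

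Counts of the 7 regulators called differed from the reported ones as follows. The counts over all genes moved too. Without both WT J1 day 7 arrays they went from 870 to 1132 in KO vs WT day 7 and from 1242 to 1511 in WT day 7 vs day 3. For the genotype difference in the change to day 7 they went from 511 to 853. Where no count over all genes is given, as in the comparisons of single lines, the count of regulators cannot be weighed. In KO vs WT day 3 it was 0 as reported, 1 without both WT J1 day 7 arrays. In KO vs WT day 7 it was 1 as reported, 2 without the line as a block, 3 with the arrays of a line and day averaged or without J1 WT or without both WT J1 day 7 arrays, and 0 with probe sets averaged or without E14 KO or without J1 KO or without V6.5 WT or with the second Zic5 probe set. In WT day 3 vs day 0 it was 3 as reported, 2 without the line as a block, 4 without J1 WT or without both WT J1 day 7 arrays, and 1 without V6.5 WT. In WT day 7 vs day 3 it was 6 as reported, 7 with no fold minimum, and 4 without V6.5 WT. In KO day 3 vs day 0 it was 1 as reported, 2 with no fold minimum, and 0 without E14 KO. In KO day 7 vs day 3 it was 2 as reported, 1 without the line as a block or without E14 KO or without J1 KO or without V6.5 WT, and 3 with no fold minimum. In the genotype difference in the change to day 7 it was 1 as reported, 3 with the arrays of a line and day averaged or without both WT J1 day 7 arrays, 2 with no fold minimum, 0 without E14 KO or without J1 KO or without V6.5 WT or with the second Zic5 probe set, and 4 without J1 WT. In J1 KO vs J1 WT day 0 it was 0 as reported, 1 without both WT J1 day 7 arrays. In J1 KO vs J1 WT day 3 it was 1 as reported, 2 without both WT J1 day 7 arrays. In E14 KO vs J1 KO day 0 it was 0 as reported, 1 without both WT J1 day 7 arrays. 

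The sign turned in these cases, none of them called. In KO vs WT day 0, Otx2 went from -0.24 to 0.18 without E14 KO and 0.080 without J1 WT, Pou3f1 went from -0.021 to 0.25 without E14 KO and 0.048 without J1 WT, Sall2 went from -0.14 to 0.46 without E14 KO, Zic2 went from -0.17 to 0.061 without J1 WT. In KO vs WT day 3, Sox3 went from -0.060 to 0.0069 without J1 WT. In KO vs WT day 7, Sox3 went from -0.0045 to 0.019 without E14 KO and 0.16 without J1 WT and 0.14 without both WT J1 day 7 arrays. In the genotype difference in the change to day 3, Zic5 went from 0.028 to -0.0034 after quantile normalization and -0.099 without J1 KO and -0.040 without V6.5 WT, Sox3 went from 0.032 to -0.026 without V6.5 WT, Wnt8a went from -0.15 to 0.69 without J1 KO. In the genotype difference in the change to day 7, Sox3 went from 0.055 to -0.0096 after quantile normalization and -0.0065 without J1 KO and -0.044 without V6.5 WT. In J1 KO vs J1 WT day 7, Zic5 went from 1.54 to -0.019 with the second Zic5 probe set. 

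With single arrays left out in turn the count of regulators called ran from 0 to 1 for KO vs WT day 3 and from 0 to 3 for KO vs WT day 7. It ran from 2 to 4 for WT day 3 vs day 0 and from 1 to 2 for KO day 7 vs day 3. For the genotype difference in the change to day 7 it ran from 1 to 3. The counts over all genes moved too. For KO vs WT day 7 they were 1081 without WT J1 day 7 replicate 1 and 868 without replicate 2. For the genotype difference in the change to day 7 they were 843 and 509. In the comparisons of single lines such a removal leaves a group with a single array, so their counts are not listed here. Differences whose sign turned with a single array left out ranged as follows. The range in KO vs WT day 0 was Pou3f1 -0.096 to 0.087, Sall2 -0.29 to 0.026. The range in KO vs WT day 3 was Sox3 -0.16 to 0.022. The range in KO vs WT day 7 was Sox3 -0.078 to 0.15. The range in the genotype difference in the change to day 3 was Zic5 -0.12 to 0.10, Sox3 -0.073 to 0.11, Wnt8a -0.50 to 0.16. The range in the genotype difference in the change to day 7 was Sox3 -0.027 to 0.21. The range in J1 KO vs J1 WT day 0 was Otx2 -0.38 to 0.11, Pou3f1 -0.029 to 0.38, Sox3 -0.31 to 0.076, Wnt8a -1.49 to 0.064. The range in J1 KO vs J1 WT day 3 was Sox3 -0.36 to 0.026. The range in J1 KO vs J1 WT day 7 was Otx2 -1.002 to 3.75, Sall2 -1.51 to 0.56, Zic2 -0.66 to 3.26, Zic5 -0.085 to 3.17, Sox3 -0.48 to 0.18, Wnt8a -0.28 to 0.88.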
